A study of Mus musculus with 12 samples.

Results

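Retinas of E168d2neo/d2neo mice were compared with retinas of R90Wneo/Wneo mice on bead arrays, each of which measures transcripts through oligonucleotide probes carried on beads. The comparison covered every probe that reached a detection p-value under 0.05 on 1 or more of the 6 arrays of these genotypes, which left 22345 of 45281 probes. Of these, 13485 were detected on all 6 arrays and 18641 carried 1 gene symbol, for 12037 genes. The 778 probes just inside this limit, with a lowest detection p between 0.04 and 0.05, had a median of 4.76 for their highest log2 signal, and the 901 just outside it, between 0.05 and 0.06, had 4.62.

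The series held 12 arrays, with 3 each for E168d2neo/d2neo, R90Wneo/Wneo, *Crx*-/- and WT. Each array carried polyA RNA pooled from the retinas of a male and a female at postnatal day 10 (P10), so that n counts pools. The strain was C57bl6/J, to which the study backcrossed its mice. Both knock-in lines came from embryonic stem cells of another strain. The E168d2 allele carries a small deletion that shifts the reading frame and truncates the activation domain of CRX, and the R90W allele replaces an amino acid in its homeodomain. Both genotypes compared here were homozygous and kept a neomycin cassette (neo) in an intron of *Crx*, which the study describes as lowering expression of the mutant allele. The *Crx*-/- mice lack functional CRX.

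The cone-rod homeobox protein CRX, made by both photoreceptor types, binds the promoters of photoreceptor genes and raises their transcription together with other factors. In the second week after birth mouse photoreceptors build outer segments and synapses. In the outer segment, light leads to the activation of transducin, transducin turns on phosphodiesterase, and the fall in cyclic GMP closes a cation channel. Loss of many of these proteins causes inherited blindness.

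Mean signal lay between 183 and 394 on the 3 E168d2neo/d2neo arrays and between 278 and 348 on the 3 R90Wneo/Wneo arrays, and 33.6% to 41.3% of probes were detected per array of the 6. E168d2neo/d2neo replicate 1 stood apart, with the lowest mean signal and Pearson correlations of 0.947 and 0.95 over tested probes with the other arrays of its genotype, against 0.987 between those. The summed signal of 16 lens genes was 197624, 1044 and 1682 in E168d2neo/d2neo and 951, 1132 and 34231 in R90Wneo/Wneo, so that E168d2neo/d2neo replicate 1 and R90Wneo/Wneo replicate 3 were high. It was 71912, 2776 and 13318 in *Crx*-/- and 2372, 1298 and 2599 in WT. The part of lens RNA in the results was not tested, and counts are therefore also given without both arrays. The signal of *Xist* on its brightest probe, a transcript of female cells, was at the floor on *Crx*-/- replicate 3 and detected on the other 11 arrays, and that of the Y-linked *Ddx3y* was detected on all 12. *Ddx3y* was lowest on WT replicate 1, at 6.60 against 9.61 and 9.64 on WT replicates 2 and 3.

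Signals were normalized between the 12 arrays, values under 16 were set to 16 (log2 of 4), and a probe was called when the limma adjusted p did not exceed 0.05 and the difference reached 2-fold. Differences are E168d2neo/d2neo minus R90Wneo/Wneo on the log2 scale. Of 24311 probes tested, 98 (0.403%) were lower and 29 (0.119%) were higher in E168d2neo/d2neo, for 72 and 16 named genes with 7 unnamed probes in each direction, and the arrays of both genotypes did not overlap for any of them. Over all tested probes the arrays did not overlap with E168d2neo/d2neo lower for 7.03% and with E168d2neo/d2neo higher for 5.4%. The median difference was -1.78 for the probes called lower and 1.29 for those called higher, against -0.01 over all 22345 probes of the comparison. For 18 of the lower probes E168d2neo/d2neo was undetected on all 3 arrays, and for 8 of the higher probes R90Wneo/Wneo was. Most probes differed little, with 21936 of 22345 within 2-fold, and a median standard error of 0.25.

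The test drew its estimate of the spread from all 12 arrays. Fitted on the 6 arrays alone it called 26 lower and 5 higher, with normalization also over the 6 it called 21 lower and 2 higher, and significance analysis of microarrays (SAM), the test in the methods of the study, called 72 lower and 7 higher. Without both arrays of high lens signal 57 probes were lower and 61 higher, and 51 of the 98 and 13 of the 29 were called again. The number called higher was 102 without E168d2neo/d2neo replicate 1, and 12 without R90Wneo/Wneo replicate 3. The number called lower was 54 and 52 when R90Wneo/Wneo replicates 2 and 3 were left out in turn.

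**Figure D1:**
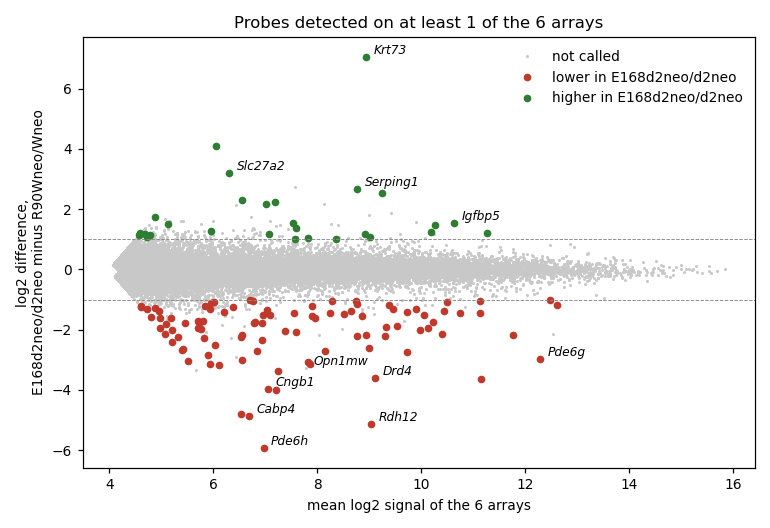
Log2 difference between E168d2neo/d2neo and R90Wneo/Wneo (y axis) against the mean log2 signal of the 6 arrays (x axis) for the probes of the comparison, with those called lower in red, those called higher in green and dashed lines at 2-fold. The largest increase was that of *Krt73* (7.06), and 1 probe not reported here is not drawn.

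The promoters of the genes that differed could be read for the CRX core motif TAATCC, which is GGATTA on the other strand. A window of 250 bases before each annotated RefSeq start (GRCm38.p6) was searched on both strands. Of the 72 genes called lower in E168d2neo/d2neo, 52 had a window in the table, with 67 starts, and 14 starts (20.9%), each of another gene, held the motif, against 6.25% of all 32851 starts and 5.47% of the 13148 starts of tested genes. No motif was found at the 13 starts of the 11 genes called higher that had a window, too few starts to tell 0 from a share of 5.47%. The motif occurred more than once at 2 of the 67 starts (2.99%), those of *Cngb1* and *Serinc4*, against 0.295% of all starts. The last 100 bases before the start are given for 4 genes called lower with 1 annotated start each and for *Krt73*, the gene with the largest increase, with each match in capitals, 5′ to 3′ on the strand of the gene.
Cngb1, minus strand, chr8:95306586-95306685: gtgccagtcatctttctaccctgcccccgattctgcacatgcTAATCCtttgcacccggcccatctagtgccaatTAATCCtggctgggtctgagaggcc
Serinc4, minus strand, chr2:121456765-121456864: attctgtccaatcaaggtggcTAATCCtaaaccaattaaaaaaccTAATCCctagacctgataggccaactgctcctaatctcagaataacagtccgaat
Aipl1, minus strand, chr11:72037510-72037609: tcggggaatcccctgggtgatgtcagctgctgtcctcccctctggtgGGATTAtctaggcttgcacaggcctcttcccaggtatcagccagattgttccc
Rpgrip1, plus strand, chr14:52110803-52110902: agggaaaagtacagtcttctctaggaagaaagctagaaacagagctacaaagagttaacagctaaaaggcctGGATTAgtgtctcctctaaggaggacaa
Krt73, minus strand, chr15:101802361-101802460: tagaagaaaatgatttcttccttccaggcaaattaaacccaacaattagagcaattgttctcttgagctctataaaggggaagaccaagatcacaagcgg
A match is a run of letters and not a measured binding site. Of these genes, *Rpgrip1*, a scaffold of the connecting cilium, was called through a dim probe, with 4.53, 4.12 and 4.14 in E168d2neo/d2neo, where it was undetected, and 5.49, 5.89 and 5.53 in R90Wneo/Wneo, and its brightest probe differed by -0.54 and did not pass. *Serinc4*, a membrane protein of the serine incorporator family, had 8.04, 7.77 and 7.75 in E168d2neo/d2neo and 9.69, 10.17 and 10.24 in R90Wneo/Wneo, with no overlap (difference -2.18, standard error 0.19, limma adjusted p = 0.000183).

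*Pde6g*, *Pde6a*, *Cngb1*, *Cnga1*, *Rcvrn* and further genes of the rod transduction cascade fell. *Pde6g*, the inhibitory subunit of rod phosphodiesterase, had log2 signals of 10.93, 10.66 and 10.84 in E168d2neo/d2neo and 13.58, 13.72 and 14.01 in R90Wneo/Wneo. Its arrays were tight in both genotypes, at a difference of -2.96, standard error 0.17, limma adjusted p = 1.34e-05. In whole retinas fewer rods and less *Pde6g* RNA per rod cannot be told apart. *Pde6a*, the catalytic alpha subunit, had 6.53, 5.56 and 6.74 in E168d2neo/d2neo and 8.01, 9.28 and 10.79 in R90Wneo/Wneo. R90Wneo/Wneo replicate 3 was highest by a wide margin, and the call (difference -3.08, standard error 0.56, limma adjusted p = 0.0335) held in 1 of the 12 fits that left out 1 array, the one without R90Wneo/Wneo replicate 1, and was not made by SAM. Over those fits the difference lay between -3.76 and -2.37.

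*Cngb1*, the modulatory subunit of the rod cyclic nucleotide-gated channel, was measured by a bright and a dim probe. The bright probe had 9.39, 9.41 and 9.22 in E168d2neo/d2neo and 12.89, 12.95 and 13.03 in R90Wneo/Wneo, and the dim probe 4.0, 5.57 and 5.61 and 9.15, 8.57 and 9.40 in the same order. The difference was -3.62, standard error 0.14, limma adjusted p = 3.72e-07 on the bright probe and -3.98, standard error 0.37, limma adjusted p = 0.000406 on the dim one, and both calls held without any 1 array. The bright probe averaged 9.34 ± 0.10 in E168d2neo/d2neo and 12.96 ± 0.07 in R90Wneo/Wneo (SD, n = 3 each), against 12.35 ± 0.15 in *Crx*-/- and 13.42 ± 0.10 in WT. *Cnga1*, the pore subunit of the same channel, was lower by 1.73 on the log2 scale (means 5.94 in E168d2neo/d2neo and 7.67 in R90Wneo/Wneo, limma adjusted p = 0.0258), a call made in 6 of the 12 fits without 1 array, over which the difference lay between -2.05 and -1.52. *Rcvrn*, recoverin, a calcium sensor of photoreceptors, had 5.73, 4.67 and 4.73 in E168d2neo/d2neo and 6.58, 8.40 and 9.15 in R90Wneo/Wneo (difference -3.00, standard error 0.54, limma adjusted p = 0.0307), and its call held in 3 of those 12 fits, without E168d2neo/d2neo replicate 1, R90Wneo/Wneo replicate 1 or WT replicate 1, at differences between -3.73 and -2.44 over all 12.

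Of 20 tested genes of rod phototransduction, taking 1 probe per gene, 9 were called lower and 0 higher, where 0.49% of 12858 genes were called lower and 0.0855% higher in all. Others called were *Slc24a1*, the sodium, calcium and potassium exchanger of the rod plasma membrane (difference -2.84, between -3.44 and -2.05 without 1 array, called in 2 of 12), *Grk1*, a kinase that helps to end the light response of rods, which had no detected signal in E168d2neo/d2neo and was at least 2.74-fold lower there, and *Gnb1*, the beta subunit of rod transducin (difference -1.01, between -1.09 and -0.87 without 1 array, called in 2 of 12). Such a bound takes an undetected probe at the lowest detected level of its array, and the p-value does not test it. The median difference of the 20 genes was -1.86, against 0 over all genes, and 17 had an unadjusted p under 0.05 with a lower mean in E168d2neo/d2neo and 0 with a higher one. *Guca1a* and *Guca1b*, activators of guanylate cyclase, differed by -2.29 and -2.90 and did not pass the test. *Sag*, rod arrestin, and *Pdc*, phosducin, differed by -0.46 and -0.42 and did not pass it either. With both arrays of high lens signal left out 5 of the 20 were called lower, in SAM 4, and in the fit on the 6 arrays 3.

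*Gnat1*, the alpha subunit of rod transducin, did not pass the test although its means were far apart. Its log2 signals were 11.89, 11.12 and 11.38 in E168d2neo/d2neo and 11.71, 13.82 and 15.31 in R90Wneo/Wneo, a difference of -2.15, standard error 0.66, limma adjusted p = 0.29. R90Wneo/Wneo replicate 1 lay inside the range of E168d2neo/d2neo and R90Wneo/Wneo replicate 3 was the highest, against a WT mean of 15.73 ± 0.10. *Opn1mw*, the middle wavelength cone opsin, had 6.60, 5.38 and 6.45 in E168d2neo/d2neo and 6.32, 10.04 and 11.92 in R90Wneo/Wneo (difference -3.28, standard error 1.03, limma adjusted p = 0.309), and it was undetected in *Crx*-/-. Here too R90Wneo/Wneo replicate 1 lay within the E168d2neo/d2neo values. Among the 98 probes called lower, R90Wneo/Wneo replicate 3 was the highest of its genotype for 61 (62.2%) and replicate 1 the lowest for 67 (68.4%), against 25.6% and 28.5% of all tested probes.

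**Figure D2:**
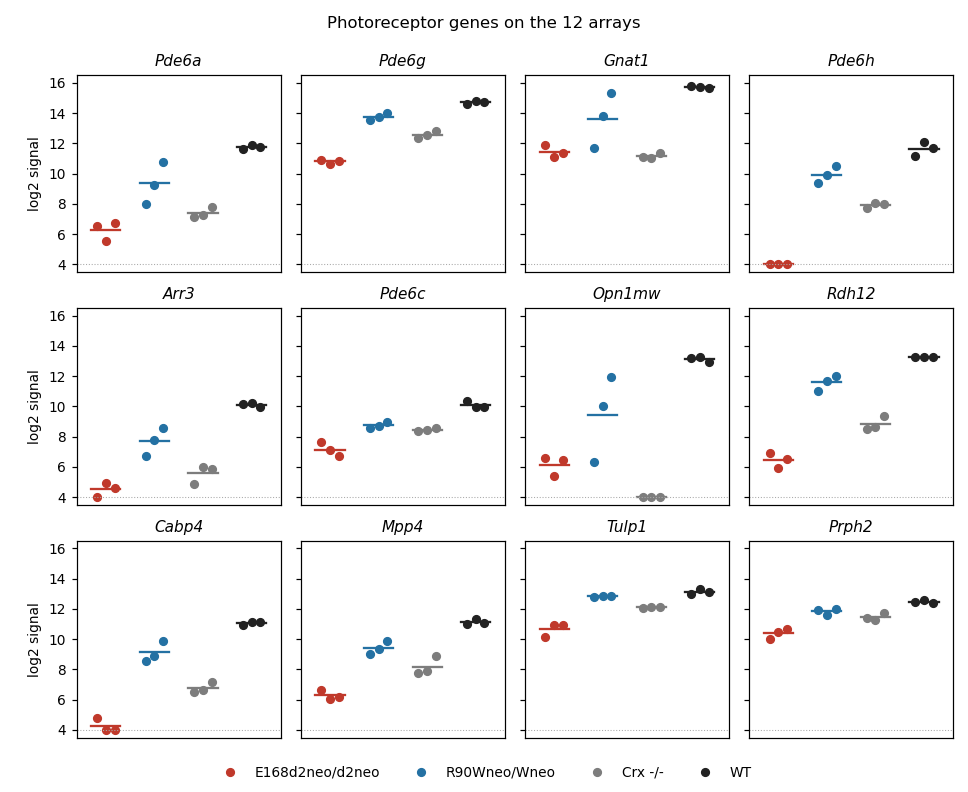
Log2 signal (y axis) of 12 photoreceptor genes on the 3 arrays each of E168d2neo/d2neo, R90Wneo/Wneo, *Crx*-/- and WT, with the mean as a bar and the floor as a dotted line. *Pde6h* was at the floor on all E168d2neo/d2neo arrays, and for *Gnat1* and *Opn1mw* the R90Wneo/Wneo arrays spread from the E168d2neo/d2neo range upward.

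Among cone genes *Pde6h*, *Arr3* and *Pde6c* fell. *Pde6h*, the inhibitory subunit of cone phosphodiesterase, was undetected on all E168d2neo/d2neo arrays and had 9.37, 9.93 and 10.49 in R90Wneo/Wneo, at least 36.3-fold lower in E168d2neo/d2neo (difference -5.93, standard error 0.29, limma adjusted p = 2.72e-06). *Arr3*, cone arrestin, had 4.0, 4.96 and 4.60 in E168d2neo/d2neo and 6.72, 7.78 and 8.60 in R90Wneo/Wneo, a difference of -3.18, standard error 0.44, limma adjusted p = 0.00765 that held without any 1 array and was lost without both arrays of high lens signal (-2.48). *Pde6c*, the catalytic subunit of cone phosphodiesterase, had 7.62, 7.10 and 6.71 in E168d2neo/d2neo and 8.61, 8.69 and 8.94 in R90Wneo/Wneo, and the difference of -1.60, standard error 0.22, limma adjusted p = 0.00742 was not called without R90Wneo/Wneo replicate 3 (-1.50). *Gnat2*, the alpha subunit of cone transducin, had 8.34, 8.09 and 8.48 in E168d2neo/d2neo and 8.41, 8.37 and 8.73 in R90Wneo/Wneo. These arrays overlapped (difference -0.20, standard error 0.17, limma adjusted p = 0.802). Of 11 tested genes of cone phototransduction 3 were called lower and 0 higher, with a median difference of -1.11.

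Among genes of the retinoid cycle, which regenerates the chromophore, *Rdh12* was the one called. *Rdh12*, a retinol dehydrogenase of photoreceptors, had 6.93, 5.95 and 6.54 in E168d2neo/d2neo and 11.03, 11.71 and 12.03 in R90Wneo/Wneo, a difference of -5.12, standard error 0.32, limma adjusted p = 2.23e-05 that held without any 1 array. The other 12 tested genes of the list did not pass the test, and their differences lay between -1.16 for *Dhrs3* and 1.05 for *Rgr*. *Rgr*, a pigment epithelium and glial opsin, had 10.64, 10.42 and 10.74 in E168d2neo/d2neo and 9.55, 8.56 and 10.55 in R90Wneo/Wneo, with R90Wneo/Wneo replicate 2 low and replicate 3 inside the E168d2neo/d2neo range. The summed signal of 14 pigment epithelium genes was 7718, 6850 and 8610 in E168d2neo/d2neo and 5410, 3493 and 7307 in R90Wneo/Wneo, so that the arrays overlapped. None of those 14 was called, and their median difference was 0.39. At an unadjusted p under 0.05, 1 was lower and 4 were higher in E168d2neo/d2neo. *Ttr*, with *Rgr* 1 of the 2 brightest, had 10.12, 10.81 and 11.10 in E168d2neo/d2neo and 9.63, 7.85 and 9.85 in R90Wneo/Wneo. Its arrays did not overlap, and the difference did not pass (1.57, standard error 0.51, limma adjusted p = 0.349).

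Among genes of the photoreceptor synapse *Cabp4*, *Mpp4*, *Cacna2d4* and *Slc17a7* fell. *Cabp4*, a calcium-binding protein that modulates the calcium channel of the terminal, was undetected on all E168d2neo/d2neo arrays (4.78, 4.0 and 4.0), against 8.57, 8.92 and 9.89 in R90Wneo/Wneo (at least 20.8-fold lower, difference -4.87, standard error 0.33, limma adjusted p = 3.14e-05). Its other probe gave a difference of -4.79 and was also undetected in E168d2neo/d2neo. *Mpp4*, a scaffold protein of photoreceptor terminals, had 6.64, 6.06 and 6.17 in E168d2neo/d2neo and 9.05, 9.35 and 9.90 in R90Wneo/Wneo (difference -3.15, standard error 0.30, limma adjusted p = 0.000492). Another called probe of *Mpp4* differed less, by between -1.37 and -1.07 over the 12 fits without 1 array. That probe was called in 8 of those fits, and neither in SAM nor in the fit on the 6 arrays. *Cacna2d4*, the auxiliary subunit of the photoreceptor calcium channel, had 5.87, 6.38 and 5.87 in E168d2neo/d2neo and 7.76, 7.72 and 7.98 in R90Wneo/Wneo, with no overlap (difference -1.78, standard error 0.30, limma adjusted p = 0.0225). Its call was lost without E168d2neo/d2neo replicate 3 or any R90Wneo/Wneo array, at differences between -1.95 and -1.69 over the 12 fits without 1 array. *Slc17a7*, the vesicular glutamate transporter of photoreceptors, had 9.80, 8.58 and 9.53 in E168d2neo/d2neo and 10.59, 11.01 and 10.84 in R90Wneo/Wneo (difference -1.51, standard error 0.29, limma adjusted p = 0.0423), and its call held in the fit without E168d2neo/d2neo replicate 1 and in 0 of the other 11, at differences between -1.76 and -1.16 over all 12. *Cacna1f*, the pore of the channel, and *Ctbp2*, which encodes the ribbon protein, differed by -0.62 and -0.30 and did not pass the test. *Cplx4* and *Lrit1* differed by -1.72 and -1.41 and did not pass either (limma adjusted p = 0.0624 and 0.303). *Elfn1* differed by -0.93 (limma adjusted p = 0.0432), which did not reach 2-fold. The 4 called genes were found among 25 tested genes of the ribbon synapse, whose median difference was -0.50, and 2 remained without both arrays of high lens signal.

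Of the outer segment genes *Tulp1*, *Fam161a*, *Prph2* and *Rp1l1* fell. *Tulp1*, which serves traffic to the outer segment, had 10.13, 10.95 and 10.96 in E168d2neo/d2neo and 12.78, 12.87 and 12.87 in R90Wneo/Wneo (difference -2.16, standard error 0.21, limma adjusted p = 0.000492), and all 3 of its called probes held without any 1 array. The WT mean was 13.15 ± 0.14. *Fam161a*, a protein of the connecting cilium, had 6.21, 6.55 and 6.33 in E168d2neo/d2neo and 8.21, 8.42 and 8.55 in R90Wneo/Wneo (difference -2.03, standard error 0.16, limma adjusted p = 9.8e-05). *Prph2*, peripherin, which shapes the rims of discs, had 10.002, 10.48 and 10.70 in E168d2neo/d2neo and 11.91, 11.63 and 12.01 in R90Wneo/Wneo (difference -1.46, standard error 0.20, limma adjusted p = 0.00777, not called without R90Wneo/Wneo replicate 3, -1.38). *Rp1l1*, a protein of the outer segment axoneme, had 9.11, 8.83 and 9.10 in E168d2neo/d2neo and 10.16, 10.36 and 10.75 in R90Wneo/Wneo (difference -1.41, standard error 0.21, limma adjusted p = 0.0122). That call was lost without E168d2neo/d2neo replicate 2 and without R90Wneo/Wneo replicates 2 or 3, at differences between -1.54 and -1.24 over the 12 fits. They made up the 4 called of 15 genes of the disc list (median difference -0.64), of which 2 were called without both arrays of high lens signal. The largest difference of the list, -3.32 for *Fscn2*, did not pass (limma adjusted p = 0.0624). *Fscn2* was undetected in E168d2neo/d2neo and had a mean of 7.32 in R90Wneo/Wneo. *Impg1* differed by -1.89 and did not pass either (limma adjusted p = 0.0848). *Rom1*, *Abca4* and *Cdhr1*, further disc membrane genes, differed by -0.63, -0.42 and -0.14 and did not pass.

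Transport, transcription and metabolism of the photoreceptor each held 1 called gene on the brightest probe per gene, where 0.49% of all genes were called lower. *Aipl1*, a chaperone of phosphodiesterase and the member so called of 32 cilium and transport genes, of which *Rpgrip1* was called through its dim probe, had 9.29, 9.27 and 9.41 in E168d2neo/d2neo and 11.36, 11.32 and 11.75 in R90Wneo/Wneo (difference -2.15, standard error 0.19, limma adjusted p = 0.000302). The 32 genes had a median difference of -0.08, and the intraflagellar transport genes *Ift172* and *Ift52* each differed by -0.03. *Pias3*, an E3 ligase for SUMO that acts on photoreceptor transcription factors, had 9.70, 9.91 and 9.61 in E168d2neo/d2neo and 11.03, 11.19 and 11.13 in R90Wneo/Wneo (difference -1.37, standard error 0.15, limma adjusted p = 0.0012). *Nxnl2*, a thioredoxin-like survival factor, had 8.37, 8.19 and 8.02 in E168d2neo/d2neo and 9.79, 10.54 and 10.88 in R90Wneo/Wneo (difference -2.21, standard error 0.25, limma adjusted p = 0.00163). Of 17 tested photoreceptor transcription factors 1 was called lower and 0 higher (2 and 1 without both arrays of high lens signal), and of 24 genes of energy metabolism 1 was called lower and 0 higher. The median differences of these lists were -0.28 and -0.16.

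*Crx* itself was not called. Its log2 signals were 13.66, 14.05 and 13.995 in E168d2neo/d2neo and 13.57, 13.43 and 13.43 in R90Wneo/Wneo, a difference of 0.43, standard error 0.15, limma adjusted p = 0.413. All 3 E168d2neo/d2neo arrays lay above the R90Wneo/Wneo arrays, by less than the test required. The probe gave 12.99, 12.83 and 13.04 in *Crx*-/-, so its signal did not check the genotype, and its place relative to the altered alleles was not analysed here. *Otx2*, the related homeodomain factor, had 11.99, 12.75 and 12.43 in E168d2neo/d2neo and 12.61, 12.33 and 12.36 in R90Wneo/Wneo, and *Nrl*, the leucine zipper factor that sets rod fate, had 12.63, 13.51 and 13.37 in E168d2neo/d2neo and 13.50, 13.37 and 13.50 in R90Wneo/Wneo. Both overlapped (differences -0.04, standard error 0.19, limma adjusted p = 0.986 and -0.28, standard error 0.21, limma adjusted p = 0.781). *Crxos*, transcribed from the strand opposite *Crx*, had 5.14, 6.12 and 5.70 in E168d2neo/d2neo and 6.84, 6.68 and 6.88 in R90Wneo/Wneo. The arrays did not overlap, and the difference did not pass (-1.15, standard error 0.26, limma adjusted p = 0.102).

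Further genes among the 12 with the largest decrease had other roles. *Drd4*, a dopamine receptor of photoreceptors, had 7.53, 7.11 and 7.27 in E168d2neo/d2neo and 10.76, 10.52 and 11.42 in R90Wneo/Wneo (difference -3.59, standard error 0.48, limma adjusted p = 0.00592), a call lost without both arrays of high lens signal (-3.44). *Fabp12*, a fatty acid-binding protein, had 5.34, 5.69 and 5.60 in E168d2neo/d2neo and 8.85, 8.85 and 9.07 in R90Wneo/Wneo, narrow ranges that lay more than 3 log2 units apart (difference -3.38, standard error 0.24, limma adjusted p = 3.38e-05). *Plpp2*, a phospholipid phosphatase, had 4.0, 5.08 and 4.0 in E168d2neo/d2neo and 6.66, 7.80 and 8.05 in R90Wneo/Wneo (difference -3.15, standard error 0.42, limma adjusted p = 0.00601), and its brighter probe differed by -2.74. Of these, all 3 were also called in the fit on the 6 arrays by at least 1 probe, as were *Pde6h*, *Rdh12*, *Cabp4*, *Cngb1*, *Pde6g*, *Tulp1*, *Aipl1*, *Fam161a* and *Pias3*. Of 65 tested genes of inherited retinal disease, 14 were called lower and 0 higher, against 0.49% and 0.0855% of all genes. Of them, 8 were called lower in the fit on the 6 arrays, 9 without R90Wneo/Wneo replicate 3 and 11 without both arrays of high lens signal. The study tabulated disease genes lowered on these same arrays, so this list is not independent evidence. The median difference of the 65 was -0.40. The study named 20 of the tested genes for these arrays, so their list is not independent evidence, and 8 of them were lower and 0 higher. Among the others *Cpm*, *Dnaic1*, *Ramp3*, *Myo7a* and *Rxrg* differed by -0.69, -0.68, -0.60, -0.46 and -0.28 and did not pass the test.

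Another set of genes, chosen after their values were seen because they were called in the fit on the 6 arrays, stood outside the lists. *Atp8a2*, a flippase that moves phospholipids across membranes, had 5.50, 5.43 and 5.50 in E168d2neo/d2neo and 7.54, 7.48 and 7.92 in R90Wneo/Wneo (difference -2.17, standard error 0.16, limma adjusted p = 5.19e-05). *Ano2*, a calcium-activated chloride channel of photoreceptor terminals, had 6.49, 6.54 and 6.63 in E168d2neo/d2neo and 8.55, 8.55 and 8.79 in R90Wneo/Wneo (difference -2.08, standard error 0.14, limma adjusted p = 2.91e-05). In both genes the arrays of each genotype lay within a narrow range, which the choice by the fit on the 6 arrays favours. *Llgl2*, a cell polarity protein, had 9.0, 9.31 and 9.15 in E168d2neo/d2neo and 11.14, 11.02 and 11.12 in R90Wneo/Wneo (difference -1.94, standard error 0.15, limma adjusted p = 5.74e-05). *Mdm1*, a microtubule-binding protein of centrioles, was called by 4 probes, with differences between -2.50 and -1.23, and the tightest had 5.83, 5.87 and 5.96 in E168d2neo/d2neo and 7.67, 7.68 and 7.65 in R90Wneo/Wneo. Of the 72 genes lower in E168d2neo/d2neo, 16 were called by more than 1 probe, as were 5 of the 16 higher genes, and no gene was called in both directions.

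**Figure D3:**
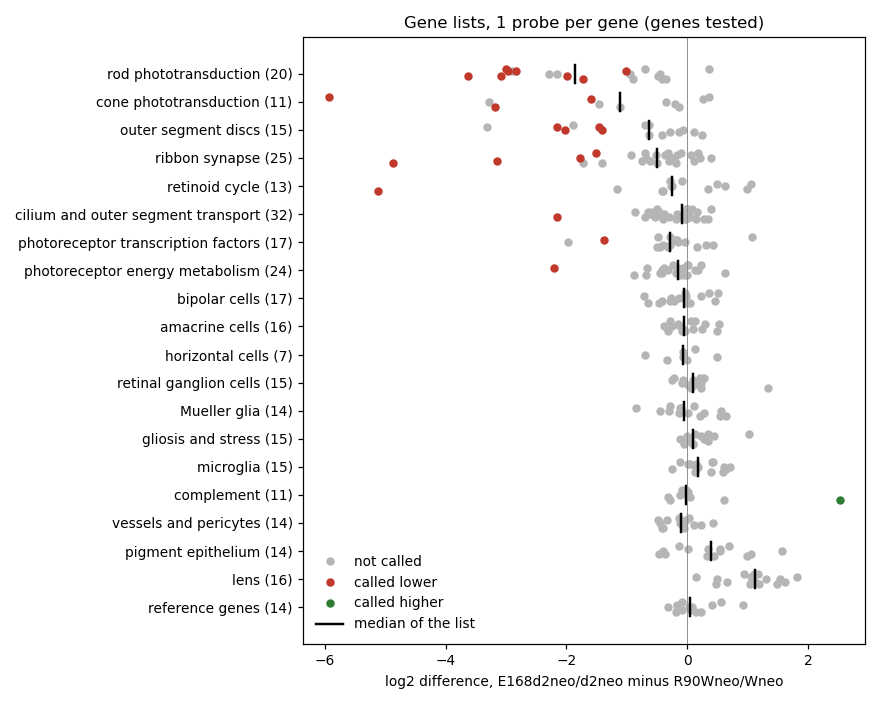
Log2 difference, E168d2neo/d2neo minus R90Wneo/Wneo (x axis), of each tested gene in 20 lists (y axis, with the number of genes), 1 probe per gene and 1 gene not reported here left out of the points, with genes called lower in red, called higher in green and the list median as a black bar. Called genes lay in the photoreceptor lists, apart from *Serping1* in the complement list, and the 16 lens genes had a median of 1.11 with none called.

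Marker lists of the other retinal cells held no called gene. Of all genes 0.49% were called lower and 0.0855% higher, so that 0 calls in lists of 7 to 17 genes lay near that share. For 17 bipolar, 16 amacrine, 7 horizontal and 15 ganglion cell genes the median differences were -0.05, -0.06, -0.07 and 0.10. For 14 Mueller glia genes and 15 microglia genes they were -0.05 and 0.18. At an unadjusted p under 0.05, 2 bipolar genes were lower and 1 higher in E168d2neo/d2neo, 1 Mueller glia gene was lower and 2 higher, and 0 microglia genes passed either way. *Prkca*, the rod bipolar marker, had 13.28, 12.99 and 13.02 in E168d2neo/d2neo and 13.33, 13.24 and 13.38 in R90Wneo/Wneo, and *Slc1a3*, the glial glutamate transporter, 14.13, 13.62 and 13.71 and 13.64, 13.64 and 13.54 in the same order. Both differed by less than the test required (-0.22, standard error 0.14, limma adjusted p = 0.733 and 0.21, standard error 0.17, limma adjusted p = 0.793). *Sox9*, the other of the 2 brightest Mueller glia genes, had 12.41, 11.87 and 11.93 in E168d2neo/d2neo and 11.53, 11.55 and 11.46 in R90Wneo/Wneo. Its arrays did not overlap, and the difference did not pass (0.55, standard error 0.16, limma adjusted p = 0.241). Among 15 genes of gliosis and stress none was called. Of them 11 had a higher mean in E168d2neo/d2neo and 4 a lower one, with a median difference of 0.09 and a range from -0.12 to 1.02. The 2 brightest, *Mt1* and *Stat3*, differed by -0.12 and 0.23, and *Gfap*, the intermediate filament of reactive glia, by -0.05. Of 17 apoptosis genes and 21 genes of the unfolded protein response none was called, at medians of 0.12 and -0.12. Lists of vessels and pericytes (14 genes), astrocytes (4), red blood cells (4), progenitors and cell cycle (15), interferon response (18), immediate early genes (15), oxidative phosphorylation (36) and reference genes (14) also held 0 called genes, with medians between -0.17 and 0.27.

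No list apart from complement held a gene called higher in E168d2neo/d2neo, and the increases were led by *Krt73*, which encodes a keratin of hair follicles. *Krt73* had 12.36, 12.37 and 12.68 in E168d2neo/d2neo and 5.30, 5.57 and 5.38 in R90Wneo/Wneo on its brighter probe, a difference of 7.06, standard error 0.26, limma adjusted p = 3.72e-07. The E168d2neo/d2neo values lay close together, on the array with high lens signal and on those without it. Its dimmer probe was undetected in R90Wneo/Wneo and at least 10.6-fold higher in E168d2neo/d2neo (difference 4.10). The brighter probe reached 10.39 ± 0.55 in *Crx*-/- (SD, n = 3) and was undetected in WT. *Slc27a2*, which activates very long chain fatty acids, had 7.74, 8.15 and 7.81 in E168d2neo/d2neo and 5.77, 4.11 and 4.22 in R90Wneo/Wneo. R90Wneo/Wneo replicate 1 was the highest of its genotype, and the difference of 3.20, standard error 0.37, limma adjusted p = 0.00213 held without any 1 array, although not in SAM or in the fit on the 6 arrays. Its other called probe was lost there too and without R90Wneo/Wneo replicate 3, at differences between 2.05 and 2.71 over the 12 fits without 1 array.

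*Serping1*, the C1 inhibitor of the complement cascade, was higher on both of its probes. One had 10.13, 9.96 and 10.21 in E168d2neo/d2neo and 7.24, 7.71 and 7.36 in R90Wneo/Wneo (difference 2.66, standard error 0.17, limma adjusted p = 2.65e-05), and the other differed by 2.52. These calls held without any 1 array, in SAM and in the fit on the 6 arrays. It was the member called of 11 complement genes, and *C1qb*, a subunit of C1q, had 8.68, 8.63 and 8.38 in E168d2neo/d2neo and 8.36, 8.89 and 8.34 in R90Wneo/Wneo. *Mzb1*, an endoplasmic reticulum protein known from B cells, had 8.20, 8.01 and 8.07 in E168d2neo/d2neo and 5.49, 6.44 and 5.87 in R90Wneo/Wneo (difference 2.16, standard error 0.24, limma adjusted p = 0.00142). Its levels in *Crx*-/- and WT, 5.89 ± 0.29 and 7.04 ± 0.17 (SD, n = 3 each), lay below all E168d2neo/d2neo arrays. *Igfbp5*, a secreted binding protein of insulin-like growth factors, had 10.96, 11.60 and 11.65 in E168d2neo/d2neo and 10.06, 9.54 and 9.99 in R90Wneo/Wneo (difference 1.54, standard error 0.22, limma adjusted p = 0.0101), and its other called probes differed by 1.46 and 1.20. The call of the first was lost without E168d2neo/d2neo replicate 2, E168d2neo/d2neo replicate 3 or R90Wneo/Wneo replicate 2 (differences between 1.37 and 1.75 over the 12 fits), and those of the other probes held without any 1 array. None of the 3 probes was called in SAM or in the fit on the 6 arrays.

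Further increases were called for *Shisal1*, *Phax*, *Tmod3*, *Pdzrn4*, *Prkcb*, *Nab1* and *Gtpbp10*, with differences of 1.18, 1.29, 1.51, 1.75, 1.20, 1.17 and 1.15. *Shisal1*, a membrane protein of the shisa family, had 9.64, 9.26 and 9.60 in E168d2neo/d2neo and 8.33, 8.38 and 8.26 in R90Wneo/Wneo, and was highest in *Crx*-/- at 10.36 ± 0.30. *Phax*, an adaptor for nuclear export of small RNAs, had 6.78, 6.58 and 6.43 in E168d2neo/d2neo and 5.29, 5.15 and 5.48 in R90Wneo/Wneo. *Tmod3*, which caps the slow end of actin filaments, had 5.53, 6.18 and 5.93 in E168d2neo/d2neo and 5.0, 4.0 and 4.12 in R90Wneo/Wneo. Of the 12 fits without 1 array, *Shisal1* was called in 9, *Phax*, *Tmod3*, *Prkcb* and *Gtpbp10* in 8, *Pdzrn4* in 6 and *Nab1* in 1. All 7 calls were lost in SAM, in the fit on the 6 arrays, without R90Wneo/Wneo replicate 2 (differences between 1.06 and 1.75) and without both arrays of high lens signal (between 1.07 and 1.66). *Prkcb*, *Nab1*, *Gtpbp10* and *Pdzrn4* were undetected in R90Wneo/Wneo, at least 1.42, 1.39, 1.59 and 2.09-fold higher in E168d2neo/d2neo, and with a floor of 64 the first 3 showed no difference.

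**Figure D4:**
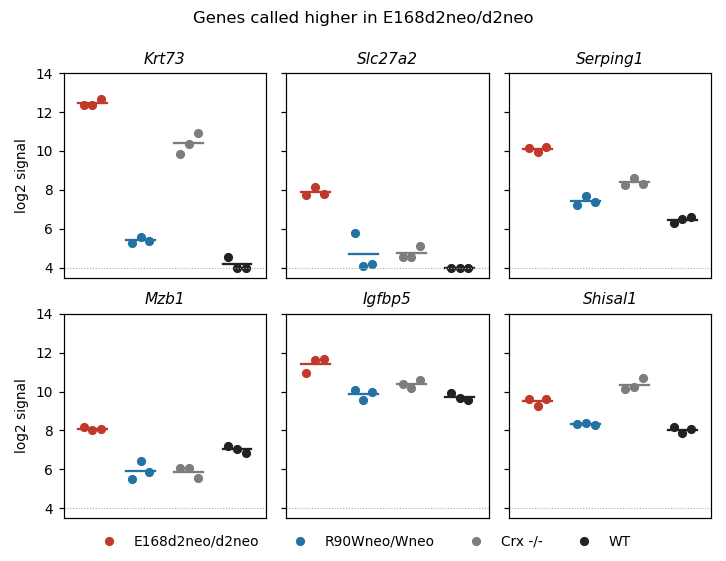
Log2 signal (y axis) of 6 genes called higher in E168d2neo/d2neo, on the 3 arrays each of E168d2neo/d2neo, R90Wneo/Wneo, *Crx*-/- and WT, with the mean as a bar and the floor as a dotted line. The means of *Krt73*, *Slc27a2*, *Serping1*, *Mzb1* and *Igfbp5* were highest in E168d2neo/d2neo, and that of *Shisal1* was highest in *Crx*-/-.

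The called probes were then read in *Crx*-/- against WT, a contrast that shares no array with the one above, although all arrays were normalized together. Of the 98 probes lower in E168d2neo/d2neo, 89 (90.8%) were also lower in *Crx*-/- than in WT, against 46.4% of all tested probes (2.31% were equal in both within 1e-06 on the log2 scale), and their median difference there was -1.59, against 0.01. Of the 29 higher probes, 23 (79.3%) were higher in *Crx*-/-, against 51.3%, with a median of 0.62. *Rdh12* had 8.85 ± 0.48 in *Crx*-/- and 13.27 ± 0.02 in WT (SD, n = 3 each), a difference of -4.42. *Rdh12* in R90Wneo/Wneo was at 11.59 ± 0.51, which fell by 1.68 against WT (limma adjusted p = 0.0283).

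Of the 9 lower probes that were not lower in *Crx*-/-, 7 carried a symbol and were chosen after their values were seen. *Nipal1*, a magnesium transporter, was undetected in E168d2neo/d2neo, against 5.92, 5.88 and 6.06 in R90Wneo/Wneo (difference -1.95, standard error 0.37, limma adjusted p = 0.0424), and its difference in *Crx*-/- against WT was 2.05 (limma adjusted p = 0.0074). *Cckbr*, a cholecystokinin receptor, had 9.02, 7.88 and 8.22 in E168d2neo/d2neo and 10.58, 10.003 and 10.27 in R90Wneo/Wneo, a difference of -1.91, whereas *Crx*-/- and WT differed by 0.17. *Mboat1*, a lysophospholipid acyltransferase, had 6.79, 6.81 and 6.88 in E168d2neo/d2neo and 8.36, 8.09 and 8.37 in R90Wneo/Wneo, narrow ranges at a difference of -1.44, and 0.48 in *Crx*-/- against WT. *Csn3*, *Ptp4a3*, *H2al1e* and 1 probe of *Aldh3a2* made up the rest. The calls of *Nipal1* and *Cckbr* held in 2 and 3 of the 12 fits without 1 array, and that of *Mboat1* in all 12. Of the 6 higher probes that were not higher in *Crx*-/-, 4 carried a symbol, *Mzb1* (-1.15 against WT), *Faah* (-0.18), *Prkcb* (-0.03) and *Tmod3*, which was undetected in *Crx*-/- and WT.

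**Figure D5:**
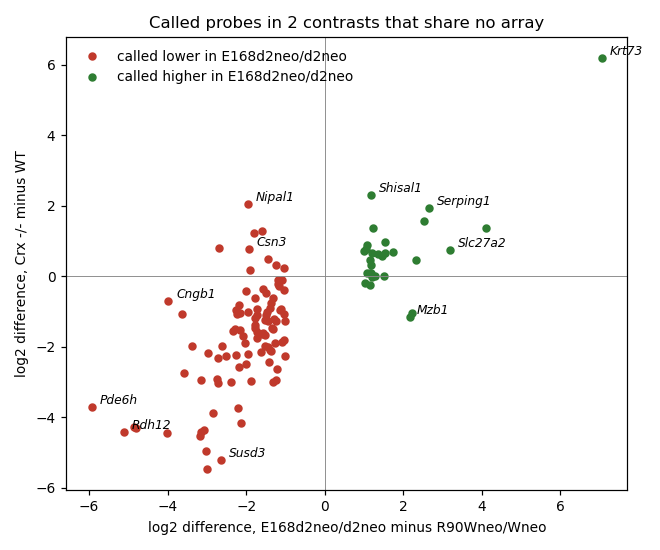
Log2 difference in *Crx*-/- minus WT (y axis) against E168d2neo/d2neo minus R90Wneo/Wneo (x axis) for the probes called lower (red) and called higher (green), contrasts with no array in common and with 1 probe not drawn. Most red points lay below 0 on the y axis (89 of all 98 probes called lower), and of the green points 23 of 29 lay above it.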

How the data were processed

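RNA of 12 retina pools was hybridised to Illumina MouseWG-6 v2.0 beadchips. The authors deposited a table of background-subtracted signal intensity per probe and array, with a detection p-value for each. A processed value table deposited with it held the same signals times 1 factor per array, and since its probe names did not carry their own values it was not used. Signal columns, whose names leave out neo, were matched to the sample titles by genotype and pool letter, and 0 columns of per-sample values were left unused. The replicates are separate pools.

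Intensities were quantile-normalized over the 12 arrays, floored at 16 and log2-transformed. Probes detected (p under 0.05) on at least 1 of 12 arrays (24311, of which 22345 were detected on at least 1 of the 6 arrays compared) were fitted with limma (version 3.58.1, R 4.3.3) by genotype, with the empirical Bayes spread shared by all 12 arrays and Benjamini-Hochberg adjustment. The methods of the study used SAM, which was run as an alternative. Calls needed an adjusted p no higher than 0.05 and a 2-fold difference. The scripts were tested on simulated data. With 3 arrays per genotype the number of arrays limits the precision.

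Gene symbols came from the platform annotation for 34885 probes and from tables of the study for 45, while 10378 probes had none and 18 had several and were not named. Named genes were the 12 with the largest change in each direction among called probes with 1 symbol and no overlap, the genes the study named for these arrays, *Crx*, and up to 4 called members per list or, where none was called, the 2 brightest. Further genes are said to have been chosen after their values were seen or are given as members of a list, and 1 gene that met the rule is not reported here. Lists took the probe of highest mean signal per gene. The probes compared and the lists were chosen with earlier results of these data known. Promoters came from RefSeq (GRCm38.p6). Alternatives were other normalizations, floors, filters, fits and tests, each array left out in turn, and a replicate block.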

Additional observations from a re-analysis of the deposited data

How the results depend on the processing

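Lower and higher counts of called probes were 98 and 29. They were 21 and 2 with normalization and fit over the 6 arrays compared, 26 and 5 with only the 6 arrays in the fit, 76 and 19 at a floor of 32, 58 and 22 at a floor of 64, 65 and 20 with no filter on dim probes, and 72 and 7 in SAM. A setting added after seeing the data, without both arrays of high lens signal, gave 57 and 61. The cause of these changes was not tested. Leaving out 1 array gave 52 to 108 lower and 12 to 102 higher. Of the calls, 46 lower and 9 higher were made in all 12 such fits, and 114 of the 127 called probes kept their sign under every alternative, with no sign reversed. The share of lower probes that were lower in *Crx*-/- than in WT was 81.0% with normalization and fit over the 6 arrays, 96.6% at a floor of 64 and 91.3% to 96.5% without 1 array. The share of higher probes that were higher there was 100% over the 6 arrays, 57.1% in SAM and 64% to 83.3% without 1 array. *Crx* kept its direction and was called under none of the alternatives run, at differences between 0.35 and 0.54 without 1 array.

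With the replicate number as a block, 92 probes were lower and 26 higher. Deviations of same-numbered E168d2neo/d2neo and R90Wneo/Wneo arrays correlated at -0.05, -0.0001 and -0.005, so the numbers did not pair the samples. A block for the slide was not run, since the slide is not given in the sources used here. Probes undetected in a genotype have only a bound, and 18 lower and 8 higher calls were of that kind.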
